A study of Mus musculus with 39 samples.

Results

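A set of secreted factors that act mainly on myeloid cells was followed through sorted mouse pancreatic tumour cells: the colony-stimulating factors Csf1, Csf2 and Csf3 and the chemokines Ccl2, Ccl7 and Ccl20. They were chosen by name, as 6 of the 39017 genes of the deposited count table. RNA sequencing counts were available for 39 libraries from 20 tumour cell clones. Each clone had been grown as a subcutaneous implant in C57BL/6 mice, and tumour cells were sorted after 3 weeks, with no treatment in any group. The T cell high class held 14 libraries of 6 clones, the intermediate class 4 libraries of 2 clones, and the T cell low class 18 libraries of 9 clones. A further 3 libraries of 3 clones had no class and entered no comparison. The design compared tumour cells of T cell high and T cell low tumours. Each group is a set of clones grown under the skin and not in the pancreas. Clone names join a parent line's number and a clone number with c, so yfp_6499c3 and yfp_6499c4 are sisters of line yfp_6499, and a tumour number ends each title. Whether the libraries of one clone stem from different animals is not stated in the labels, so p-values measure only the spread between the values compared.

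Colony-stimulating factors are cytokines that drive the growth and survival of myeloid cells. CSF1 acts through CSF1R on macrophages and their precursors, CSF2 (also called GM-CSF) supports granulocytes, macrophages and dendritic cells, and CSF3 (also called G-CSF) raises the output of neutrophils from the bone marrow. CCL2 and CCL7 draw monocytes out of the marrow and into tissue through the receptor CCR2, and CCL20 attracts CCR6-bearing lymphocytes and dendritic cells. In pancreatic tumours such factors can be made by the tumour cells, by fibroblasts and by the recruited myeloid cells themselves.

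On the GRCm38 build with GENCODE M21 annotation, Csf1 lies at chr3:107741048-107760469 on the minus strand and Ccl20 at chr1:83116766-83119167 on the plus strand. The other members lie on chromosome 11. Csf2 spans chr11:54247271-54249667 on the minus strand and Csf3 chr11:98701263-98703629 on the plus strand. Ccl2 at chr11:82035571-82037453 and Ccl7 at chr11:82045712-82047525 are neighbours on the plus strand, 8258 bases apart with no annotated gene between them. Csf2 and Ccl2 are each overlapped by a gene on the opposite strand, but those neighbours hold 103 counts (Gm12223) and 0 counts (Gm17268) over all 39 libraries.

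Several of these genes are textbook targets of the transcription factor NF-kB, so the promoters that could be read were searched for its consensus on both strands. Promoter windows, 250 bases before to 50 bases after the start, were found in RefSeq (build GRCm38.p6) for 3 of the 6 members. The window of Csf2 is not shown because its RefSeq start lies 232 bases upstream of the GENCODE start. The windows of Csf1 (chr3:107760420-107760719, minus strand) and Ccl20 (chr1:83116516-83116815, plus strand) are shown because their RefSeq and GENCODE starts agree. Each holds a match, which stands in capitals.
Csf1: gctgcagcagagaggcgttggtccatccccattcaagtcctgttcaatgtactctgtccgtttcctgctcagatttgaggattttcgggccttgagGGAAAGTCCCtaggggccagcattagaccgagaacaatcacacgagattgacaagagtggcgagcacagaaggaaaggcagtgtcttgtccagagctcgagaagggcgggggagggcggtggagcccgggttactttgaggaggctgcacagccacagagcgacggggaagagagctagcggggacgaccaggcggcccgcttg
Ccl20: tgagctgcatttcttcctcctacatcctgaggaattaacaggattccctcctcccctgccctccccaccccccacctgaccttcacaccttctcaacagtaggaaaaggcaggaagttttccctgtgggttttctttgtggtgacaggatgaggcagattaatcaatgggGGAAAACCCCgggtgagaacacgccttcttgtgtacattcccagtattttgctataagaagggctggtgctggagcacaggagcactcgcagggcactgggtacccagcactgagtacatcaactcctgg
The match GGAAAGTCCC begins at position -154 from the Csf1 start, and GGAAAACCCC at position -80 from the Ccl20 start. A match is present in 4.51% of 32851 RefSeq promoter windows of this length. It describes the letters and does not show binding. Over 16 clones, Pearson's r between the log2 CPM of Csf1 and of Ccl20 was 0.302, as a description.

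Library totals ran from 7638130 to 103794674 counts with a median of 34565903. In 19 libraries transcripts of heart muscle (Mb, Myl2, Myh6 and Myh7) added up to between 152 and 4893 CPM, where CPM is a count scaled to a common library total, and these are called heart-bearing. In the other 20, from 17 clones, the sum was at most 0.235 CPM, and these are called heart-free. Of the 19 heart-bearing libraries, 18 carried tumour number 1, against 1 of the 20 heart-free ones. Liver transcripts (Alb, Fga, Fgb, Ahsg, Mat1a and Cps1) summed to 512 to 14680 CPM in heart-bearing libraries. In heart-free ones they summed to 0.0926 to 255 CPM with a median of 0.68 CPM, and the highest sum was that of yfp_6419c1. Tumour epithelial markers (Krt7, Krt8, Krt18, Krt19, Epcam and Cdh1) summed to 3514 to 10970 CPM in heart-bearing and 4575 to 13560 CPM in heart-free libraries, with 6 of 6 detected in both. The cells labelled as tumour cells therefore carried their defining markers. In heart-free libraries, 8 of 8 macrophage markers were also detected, with sums of 87.3 to 3300 CPM, and T cell markers summed to at most 3.62 CPM. In bulk libraries, fewer cells of a type and less RNA per cell cannot be told apart.

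The 7 libraries richest in heart transcripts, at 4262 to 4893 CPM and each from a different clone (4 high, 3 low), showed close to one level for most members. Csf1 stood at 47.3 to 53.9 CPM there and Csf2 at 2.18 to 3.15 CPM. Csf3 stood at 1.28 to 2.12 CPM, Ccl2 at 11.3 to 18.5 CPM and Ccl7 at 5.69 to 8.49 CPM. Only Ccl20, at 0.684 to 3.52 CPM, spread over more than a 2-fold range, with its highest value in yfp_6419c1. The SD of log2 CPM for Csf1 was 0.0727 in these 7 libraries, 0.67 over all heart-bearing libraries and 0.97 over heart-free ones. The median gene showed the same order, with SDs of 0.107, 0.30 and 0.41. Levels are therefore given in heart-free libraries first, and the share of heart and liver tissue in the differences between the 2 kinds was not tested.

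In heart-free libraries, all 6 members were detected in every library, but at low levels that differed widely between clones. Per kilobase of exon sequence, the median level was 8.89 CPM per kb for Ccl2, 5.37 for Csf2, 3.44 for Ccl7, 2.74 for Csf1, 1.44 for Ccl20 and 1.28 for Csf3. Csf2 spanned the widest range, with its highest library 187-fold above its lowest, followed by Csf3 at 97.5-fold, Ccl7 at 49.96-fold and Ccl2 at 32.3-fold. Csf1 spanned 9.76-fold and Ccl20 6.66-fold. The lowest values rest on few reads, 5 for Csf2 and 5 for Csf3, so the widest folds carry a large counting error. Ranked by SD of log2 CPM over heart-free libraries, Csf2 varied more than 94.3% of the 13338 genes compared, Ccl2 and Ccl7 more than 91.9%, Csf3 more than 88.2%, Csf1 more than 83.7% and Ccl20 more than 73.0%.

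**Figure D1:**
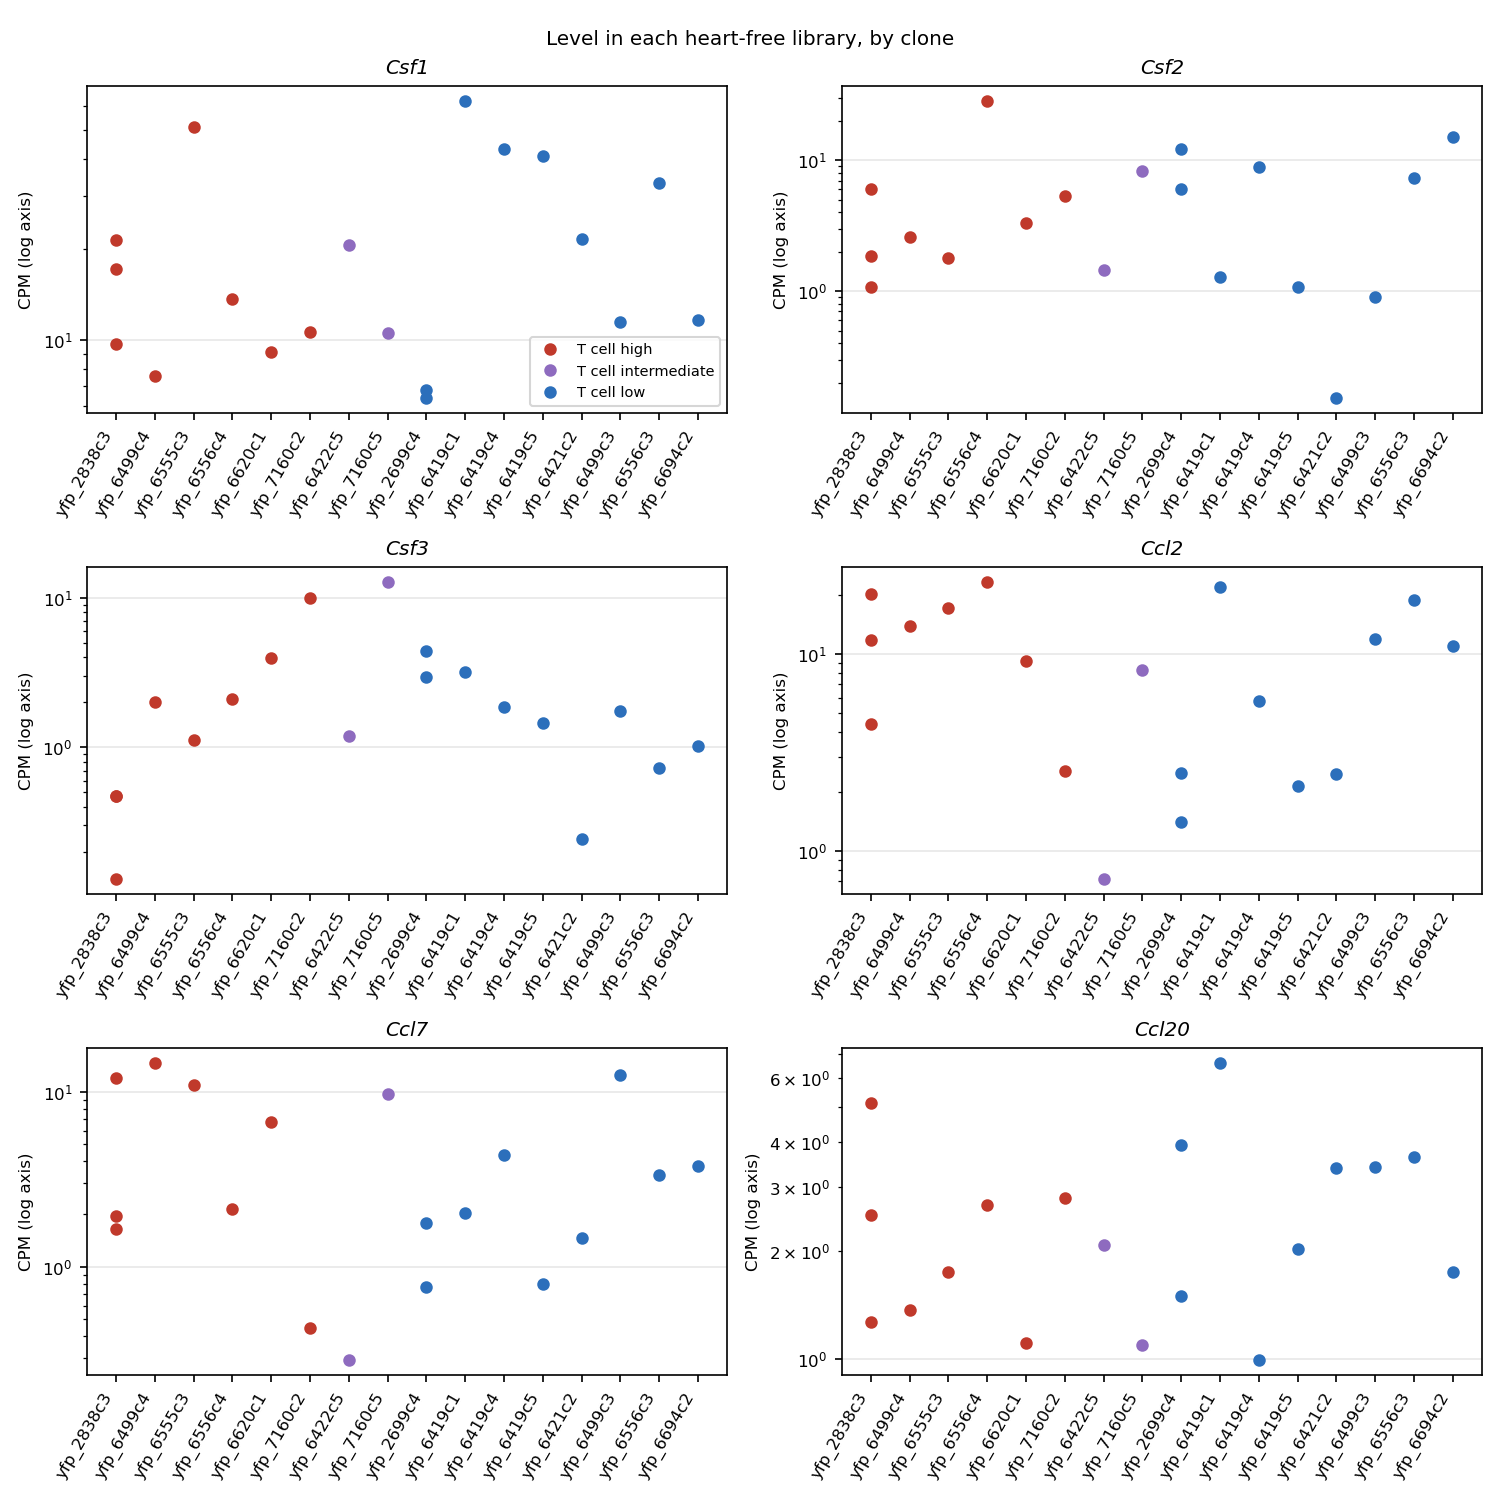
Level of each member in CPM (log axis) in the heart-free libraries, by clone; each point is 1 library, red for T cell high, purple for intermediate and blue for T cell low clones. High and low clones overlap for all 6 members, while single clones stand out, such as yfp_6556c4 for Csf2 at 28.5 CPM and yfp_7160c2 and yfp_7160c5 for Csf3 at 10.04 and 12.8 CPM.

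Csf1, the macrophage growth factor, had its highest heart-free level in yfp_6419c1, a low clone. Over the 6 high clones, heart-free Csf1 was 7.57 CPM at the lowest (yfp_6499c4), 12.1 CPM at the median and 50.9 CPM at the highest (yfp_6555c3), against 6.60 CPM (yfp_2699c4), 27.5 CPM and 62.4 CPM (yfp_6419c1) over 8 low clones. The classes overlap: 5 of 6 high clones stood at or under 16.1 CPM, and yfp_6555c3 alone reached the level of line yfp_6419. All 3 clones of line yfp_6419 were among the highest, at 62.4 CPM in yfp_6419c1, 43.2 CPM in yfp_6419c4 and 40.8 CPM in yfp_6419c5. Fibroblast markers (Col1a1, Col1a2, Col3a1, Dcn, Lum and Pdgfra) summed to 17250 CPM in yfp_6555c3, and to 1032, 5918 and 2609 CPM in yfp_6419c1, yfp_6419c4 and yfp_6419c5, against a median of 553 CPM over heart-free libraries. The part of fibroblast transcripts in these Csf1 levels was not tested. Clone yfp_2699c4 had the lowest Csf1 of all, 6.40 and 6.81 CPM in its 2 heart-free libraries.

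Csf2, which encodes GM-CSF, spanned the widest range, with classes that overlap. The high clones ran from 1.78 CPM in yfp_6555c3, through a median of 3.14 CPM, to 28.5 CPM in yfp_6556c4, against 0.152 CPM in yfp_6421c2, a median of 4.34 CPM and 14.96 CPM in yfp_6694c2 for the low clones. In 1 of 6 high clones, yfp_6556c4, Csf2 exceeded every low clone, and its sister yfp_6556c3, a low clone, had 7.39 CPM. Low clone yfp_6694c2 was high in both of its libraries, at 28.8 CPM in the heart-bearing and 14.96 CPM in the heart-free one. By contrast, the heart-bearing library of yfp_6556c4, one of the 7 heart-richest, held 3.08 CPM, so its high value rests on 1 library. Clone yfp_6421c2 had 1.56 CPM in its heart-bearing library and 0.152 CPM, the lowest heart-free value, in its heart-free one.

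Csf3, which encodes G-CSF, marked the 2 clones of line yfp_7160, one high and one intermediate. High clone yfp_7160c2 had 4.20 CPM in its heart-bearing and 10.04 CPM in its heart-free library, and intermediate clone yfp_7160c5 had 8.62 and 12.8 CPM. These were the highest classified clones in both kinds of library. The remaining high clones ran from 0.359 CPM in yfp_2838c3 to 3.97 CPM in yfp_6620c1 in heart-free libraries, and the low clones from 0.243 CPM in yfp_6421c2, through 1.61 CPM, to 3.70 CPM in yfp_2699c4. In 2 of 6 high clones, yfp_7160c2 and yfp_6620c1, Csf3 exceeded every low clone, while yfp_2838c3 lay near the lowest low clone. Neutrophil markers (S100a8, S100a9, Retnlg, Cxcr2, Mmp9 and Ly6g) summed to 7.35 CPM in yfp_7160c2 and 17.1 CPM in yfp_7160c5, against a heart-free median of 15.7 CPM.

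Ccl2, the main ligand of CCR2, had its highest heart-free values in clones of both classes. High clones ran from 2.55 CPM in yfp_7160c2, through a median of 12.96 CPM, to 23.2 CPM in yfp_6556c4, against 1.95 CPM in yfp_2699c4, a median of 8.39 CPM and 21.8 CPM in yfp_6419c1 for low clones. In 1 of 6 high clones, yfp_6556c4, Ccl2 exceeded every low clone, and the classes otherwise overlap. Both clones of line yfp_6556 were high, with 23.2 CPM in yfp_6556c4 and 18.8 CPM in yfp_6556c3. Intermediate clone yfp_6422c5 had 30.1 CPM in its heart-bearing library and 0.719 CPM, the lowest value of all, in its heart-free one.

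Ccl7, a second CCR2 ligand, had its highest heart-free values in the libraries richest in macrophage markers, while some heart-bearing libraries were higher still, such as that of yfp_6422c5 at 28.5 CPM. High clones ran from 0.449 CPM in yfp_7160c2, through 5.98 CPM, to 14.6 CPM in yfp_6499c4, against 0.801 CPM in yfp_6419c5, 2.69 CPM and 12.4 CPM in yfp_6499c3 for low clones. Except for yfp_6499c3, every low clone stood at or under 4.36 CPM, so yfp_6499c4 and yfp_6499c3, sisters of opposite class, held the highest value of each class. In 6 heart-free libraries the pan-leukocyte markers (Ptprc, Laptm5, Tyrobp, Coro1a, Cd52 and Fcer1g) summed to 209.8 to 399 CPM and the macrophage markers to 1390 to 3300 CPM. Ccl7 stood at 6.76 to 14.6 CPM in those 6, against 0.293 to 8.18 CPM in the other 14, where leukocyte markers summed to 9.35 to 73.1 CPM and macrophage markers to 87.3 to 606 CPM. For Ccl7, 5 of the 6 libraries lay above every other library. The same count was 1 of 6 for Csf3 and 0 of 6 for Csf1, Csf2, Ccl2 and Ccl20. It was not computed for other genes, so the share of all genes that separate like Ccl7 is not known. Of these 6 libraries 4 were of high clones (yfp_6499c4, yfp_6555c3, yfp_6620c1 and one of yfp_2838c3), 1 of an intermediate (yfp_7160c5) and 1 of a low clone (yfp_6499c3).

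**Figure D2:**
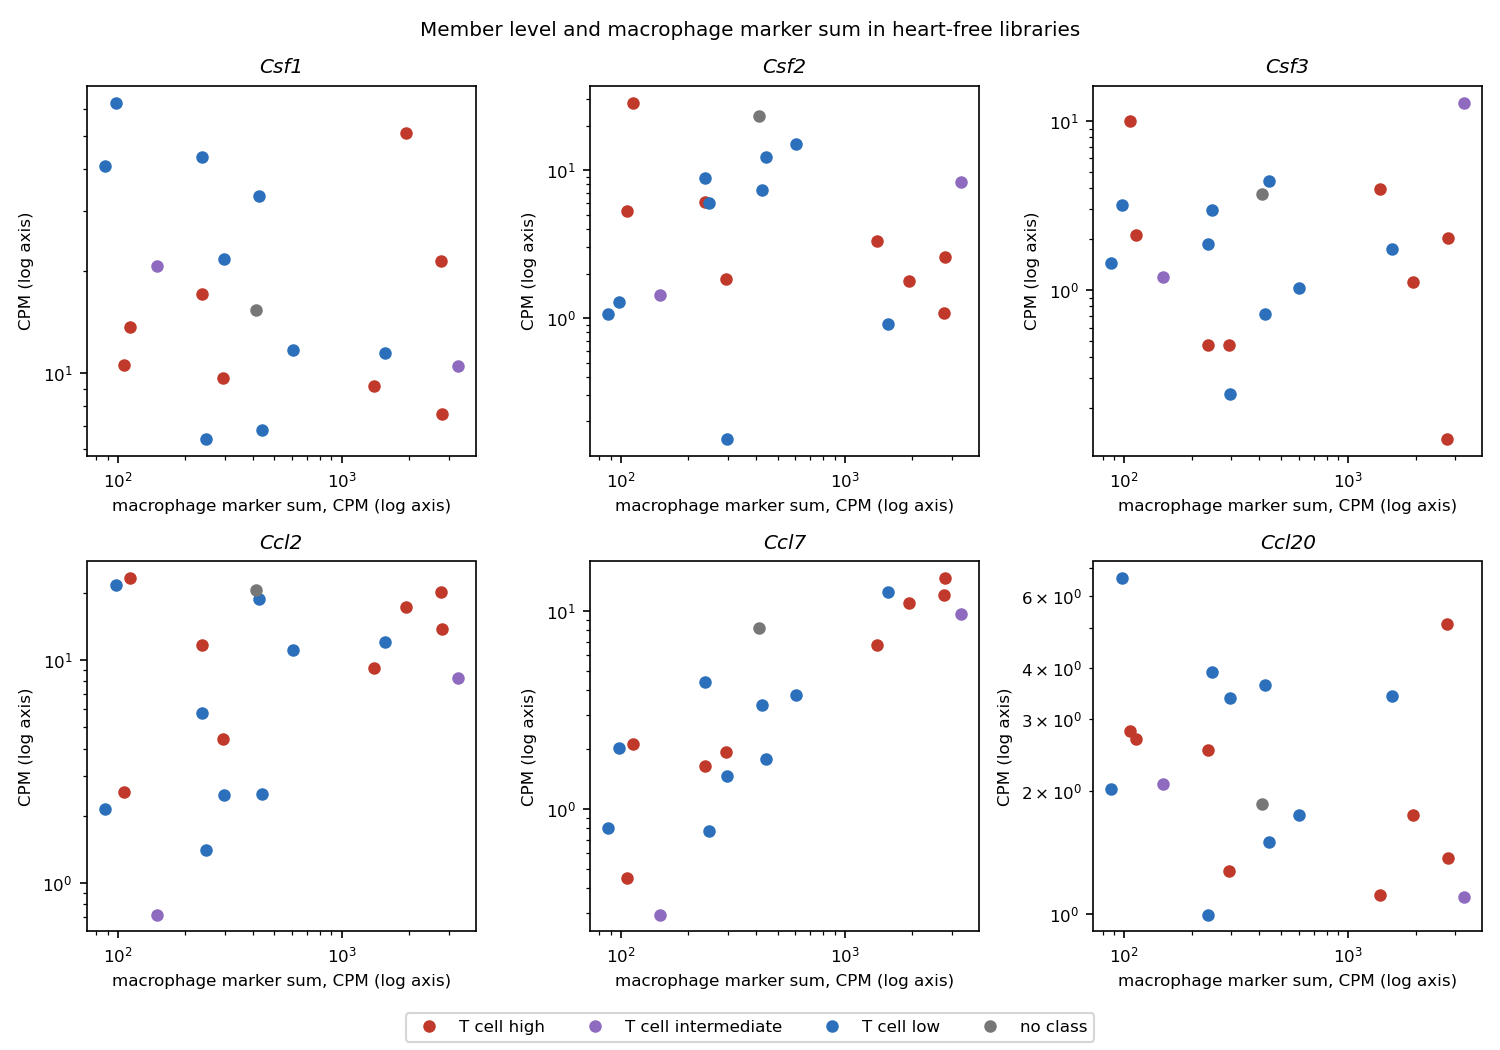
Level of each member (CPM, log axis) against the summed level of 8 macrophage markers (CPM, log axis) in the 20 heart-free libraries; each point is 1 library, coloured by class. The 6 libraries with macrophage sums of 1390 CPM or more have Ccl7 at 6.76 to 14.6 CPM, while their levels of the other members lie within the range of the remaining 14, except for Csf3, with 1 library above and 1 below it.

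Among the libraries already counted above, the contrast in Ccl7 can also be read within clone yfp_2838c3, where it rests on a single leukocyte-rich library. The 3 heart-free libraries of yfp_2838c3 had leukocyte sums of 34.9, 34.8 and 347 CPM, and Ccl7 at 1.65, 1.94 and 12.03 CPM. Ccl2 stood at 11.7, 4.40 and 20.1 CPM in the same libraries, so it differed between the first pair, whose leukocyte sums were alike. The ratio of Ccl7 to Ccl2 (CPM over CPM) had a median of 0.885 (range 0.597 to 1.17) in the 6 leukocyte-rich libraries and of 0.386 (range 0.0922 to 0.757) in the other 14. The lowest ratios were those of yfp_6556c4 and yfp_6419c1, with Ccl2 at 23.2 and 21.8 CPM, Ccl7 at 2.14 and 2.03 CPM, and macrophage sums of 113 and 97.9 CPM. The part of macrophage RNA in the Ccl7 level was not tested.

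Ccl20, the CCR6 ligand, varied least in heart-free libraries. High clones ran from 1.11 CPM in yfp_6620c1, through 2.21 CPM, to 2.97 CPM in yfp_2838c3, against 0.994 CPM in yfp_6419c4, 3.04 CPM and 6.62 CPM in yfp_6419c1 for low clones. The classes overlap, with the highest values in low clones. Its receptor gene Ccr6 was nearly absent, at 0 to 0.165 CPM in heart-free libraries.

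High and low clones were compared with the edgeR quasi-likelihood test on counts summed per clone, with Benjamini-Hochberg adjustment over all genes tested and a threshold of 0.05. In heart-free libraries, 0 of 6 members passed, where 0.00% of 15614 genes passed in all. At an unadjusted p under 0.05 there were 2093 genes but no member. DESeq2, run without that filter on 27426 genes, called 372 of them, also with 0 members. The log2 difference, high minus low, was 0.91 ± 0.66 (SE) for Csf3, 0.87 ± 0.68 for Ccl7, 0.46 ± 0.88 for Csf2 and 0.46 ± 0.60 for Ccl2. It was -0.68 ± 0.55 for Csf1 and -0.53 ± 0.39 for Ccl20, and the adjusted p was 0.548 to 0.852 over the 6 members. The clone means ± SD (n = 6 high and 8 low clones) overlap widely, as for Csf3 at 3.27 ± 3.53 CPM in high and 1.74 ± 1.18 CPM in low clones, or Csf1 at 17.99 ± 16.4 CPM in high and 28.9 ± 19.4 CPM in low clones. For 0 of 6 members were high and low clones free of overlap, beside 0.235% of 13625 genes whose mean reached 1 CPM.

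Single clones moved several of these differences. Without yfp_7160c2 the Csf3 difference was 0.13 ± 0.61, and without yfp_6556c4 the Csf2 difference was -0.81 ± 0.83. Without yfp_6499c3 the Ccl7 difference was 1.47 ± 0.63, and without yfp_6555c3 the Csf1 difference was the lowest of the range, -1.36. With the 6 leukocyte-rich libraries left out, a comparison added after seeing the data that keeps 3 high and 7 low clones, the Ccl7 difference was -0.71 ± 0.63 (adjusted p = 0.91), opposite in sign to the value with them. Of the 6 libraries left out, 5 held more Ccl7 than every other heart-free library, and 4 were of high clones. The change therefore follows in part from the choice of libraries and says nothing of a cause. The same step gave -1.35 ± 0.62 for Csf1, 1.28 ± 0.86 for Csf3 and 1.05 ± 1.05 for Csf2, and 0 members passed.

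Over all libraries, 0 of 6 members passed as well, where 0.00% of 18529 genes passed. Of these genes 2175 had an unadjusted p under 0.05. DESeq2, run on 29518 genes, called 157 of them with 0 members. Ccl20 had the smallest p of the members (0.0391 before adjustment), at -0.73 ± 0.33 with clone means of 1.69 ± 0.59 CPM in 6 high and 2.77 ± 1.26 CPM in 9 low clones (edgeR adjusted p = 0.406). Csf3 differed by 0.66 ± 0.43 (edgeR adjusted p = 0.514). Ccl7 differed by -0.12 ± 0.41, and Ccl2, Csf1 and Csf2 also lay within 1 SE of 0. For 0 of 6 members were the classes free of overlap, beside 0.0695% of 14383 genes.

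**Figure D3:**
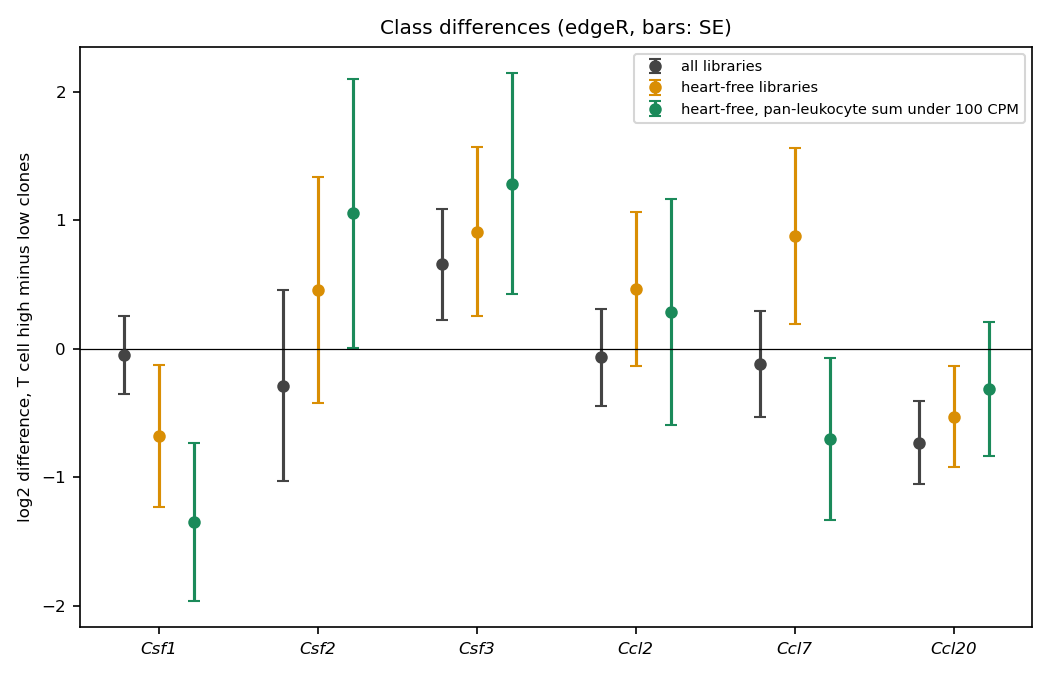
Log2 difference of each member, T cell high minus low clones, from edgeR on counts summed per clone, with bars of 1 SE: all libraries (grey), heart-free libraries (orange) and heart-free libraries with a pan-leukocyte sum under 100 CPM (green, 3 high and 7 low clones). Ccl7 stands at 0.87 in heart-free libraries and at -0.71 without the leukocyte-rich ones, which include those with the most Ccl7. No member passes the threshold in any of the 3.

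Lines yfp_6499 and yfp_6556 each hold a high and a low clone, so class can be compared with the line held constant. Over their 8 libraries 0 of 6 members passed the edgeR test, where 0.00% of 16857 genes passed and 1511 had an unadjusted p under 0.05. Csf3 differed by 0.90 ± 0.41 (p = 0.0618 before adjustment, adjusted p = 0.563) and Ccl20 by -0.92 ± 0.49 (adjusted p = 0.592). Csf3 stood at 2.12 and 2.02 CPM in the heart-bearing and heart-free libraries of yfp_6499c4, against 0.841 and 1.76 CPM in yfp_6499c3. In line yfp_6556 it was 1.96 and 2.11 CPM in yfp_6556c4, against 1.29 and 0.726 CPM in yfp_6556c3. Csf3 was thus higher in the high sister in all 4 pairs of the same kind of library. Ccl20 was lower in the high sister in all 4 pairs. It stood at 1.48 and 1.37 CPM in yfp_6499c4, against 4.63 and 3.41 CPM in yfp_6499c3. In line yfp_6556 it was 1.12 and 2.68 CPM in yfp_6556c4, against 1.63 and 3.63 CPM in yfp_6556c3. These 4 pairs come from lines yfp_6499 and yfp_6556 alone, so they are not 4 independent comparisons, and the test took each library as a value. The share of all genes with the same direction in all 4 pairs was not computed. The heart-bearing libraries of these clones were unlike in heart transcripts. Their sums scaled by TMM were 4392 CPM in yfp_6499c4 and 4385 CPM in yfp_6556c4, against 161.6 CPM in yfp_6499c3 and 593 CPM in yfp_6556c3. Those of yfp_6499c4 and yfp_6556c4 were among the 7 heart-richest libraries, where Csf3 stood at 1.28 to 2.12 CPM over high and low clones. The part of heart transcripts in these differences was not tested. The class difference did not pass a test of a change between the lines for any member (edgeR adjusted p = 1).

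Clones yfp_2838c3 (high) and yfp_2699c4 (low) had the most libraries and were compared in heart-free libraries alone, which says nothing of their classes. Csf3 was called, as 1 of 6 members, where 18.3% of 15762 genes were called. Csf3 had 0.472, 0.473 and 0.131 CPM in the libraries of yfp_2838c3, against 2.97 and 4.44 CPM in those of yfp_2699c4. The difference was -3.34 ± 0.60 (edgeR adjusted p = 0.0194). The libraries of the clones do not overlap for Csf3, but the share of all genes for which that holds was not computed. Csf2, with 6.06, 1.84 and 1.08 CPM in yfp_2838c3 and 6.00 and 12.3 CPM in yfp_2699c4, overlapped between the clones and differed by -1.60 ± 0.76 (adjusted p = 0.195).

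For Csf1 and Ccl2 the libraries of yfp_2838c3 held the larger values, and neither gene passed. Csf1 had 17.1, 9.65 and 21.4 CPM in yfp_2838c3, against 6.40 and 6.81 CPM in yfp_2699c4, a difference of 1.31 ± 0.38 (edgeR adjusted p = 0.0624). Ccl2 had 11.7, 4.40 and 20.1 CPM in yfp_2838c3, against 1.40 and 2.50 CPM in yfp_2699c4, a difference of 2.66 ± 0.72 (adjusted p = 0.0534). Neither overlaps between the clones in heart-free libraries, where the share of all genes without overlap was not computed. With all libraries of both clones the Csf1 difference was -0.0090 ± 0.72. The heart-bearing library of yfp_2838c3 held Csf1 at 35.6 CPM, against 23.5 and 47.3 CPM in those of yfp_2699c4. The Csf3 call was lost without either yfp_2699c4 library, at -3.58 ± 0.75 without tumour 3 (adjusted p = 0.0962) and -3.04 ± 0.77 without tumour 4 (0.149). Either step leaves yfp_2699c4 with 1 library, which is assumed to vary like those of yfp_2838c3. The call was also lost with all libraries of both clones (-2.26 ± 0.66, adjusted p = 0.152). Without the leukocyte-rich library of yfp_2838c3 it stood at -2.92 ± 0.42 (adjusted p = 0.0162). Leaving out yfp_2838c3 tumour 3 added calls for Csf1 (adjusted p = 0.0285) and Ccl2 (0.0316), and leaving out tumour 2 added Csf2 (0.0366).

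Among NF-kB factors and targets, 5 of 12 genes passed with a higher level in yfp_2838c3 than in yfp_2699c4, and 0 passed with a lower one. Of all genes tested 18.3% were called, with 1432 of 15762 called as higher. Nfkbia (-0.30), Cebpb (-0.17) and Bcl3 (-0.16) were lower without passing, while Nfkb1, Rel, Rela and Birc3 were higher without passing. The list had a median log2 difference of 0.53 beside 0.02 over all genes tested. Icam1, an adhesion molecule, differed by 2.26 ± 0.33 (edgeR adjusted p = 0.0123). Nfkbie, an inhibitor of NF-kB, differed by 1.995 ± 0.44 (0.0323) and Relb, a subunit of the noncanonical pathway, by 1.03 ± 0.17 (0.0155). Nfkb2, the partner of Relb, differed by 0.99 ± 0.21 (0.0275) and Tnfaip3, a feedback inhibitor, by 0.76 ± 0.16 (0.0286). Csf3 was lower in the clone in which these 5 genes were higher, and so was Csf2 (-1.60), without passing. Csf1 (1.31), Ccl2 (2.66) and Ccl7 (2.06) were higher in that clone, also without passing, with Ccl20 at 0.16. Leukocyte markers summed to 34.9, 34.8 and 347 CPM in yfp_2838c3, against 20.8 and 39.95 CPM in yfp_2699c4, and their part in these differences was not tested. With all libraries of both clones, 4 of 15759 genes were called, beside 2878 of 15762 in the heart-free fit. The NF-kB list was not followed in the fit with all libraries.

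Over 16 classified clones, a test of any difference among clones in heart-free libraries called 0 of 6 members, where edgeR called 8.13% of 18614 genes and 6566 had an unadjusted p under 0.05. Before adjustment, p was 0.0047 for Csf1, 0.00923 for Csf3, 0.0445 for Csf2 and 0.0453 for Ccl2, with adjusted p of 0.0529 for Csf1 and 0.0692 for Csf3. The residual spread in this test comes only from yfp_2838c3 and yfp_2699c4, since other clones had 1 heart-free library. With all libraries and the heart transcripts as a block, Csf2 (adjusted p = 0.00988) and Csf3 (adjusted p = 0.00682) passed, among 26.6% of 20453 genes.

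The intermediate clones yfp_7160c5 and yfp_6422c5 differed from each other in Csf3 in both kinds of library. It was 8.62 and 12.8 CPM in the 2 libraries of yfp_7160c5, and 1.73 and 1.20 CPM in those of yfp_6422c5. Against the low clones, 0 of 6 members passed where 0.00500% of 20003 genes did and 1008 had an unadjusted p under 0.05, and Csf3 came nearest at 1.93 ± 0.64 (p = 0.00765 before adjustment, edgeR adjusted p = 0.654). Against the high clones 0 of 6 members passed where 0.00% of genes did (413 at an unadjusted p under 0.05), with Csf3 at 1.29 ± 0.70. These comparisons share the intermediate clones.

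Heart-bearing libraries held more Csf1 than heart-free libraries of the same clone in 13 of 15 clones, with a median log2 difference of 1.12, beside -0.0778 for the median gene. Ccl7 was higher in 11 of 15 clones (median 1.70) and Ccl2 in 10 of 15 (0.89). Csf2 and Csf3 showed no common direction, at 9 of 15 (0.17) and 8 of 15 (0.06), and Ccl20 was higher in only 6 of 15 (-0.58). The largest differences were those of yfp_6422c5, with Ccl7 at 28.5 CPM in the heart-bearing and 0.293 CPM in the heart-free library. Macrophage markers had a median sum of 1242 CPM (568.3 to 2199) in heart-bearing and 355.5 CPM (87.3 to 3300) in heart-free libraries. Fibroblast markers had 3846 CPM (804 to 8211) in heart-bearing and 553 CPM (100.1 to 17250) in heart-free libraries. Pan-leukocyte medians were 212.2 CPM in heart-bearing and 37.8 CPM in heart-free libraries, and endothelial medians were 187.7 CPM in heart-bearing and 13.6 CPM in heart-free ones. The part of these cells in the differences was not tested, nor were the differences themselves, and tissue content and tumour number cannot be told apart here.

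**Figure D4:**
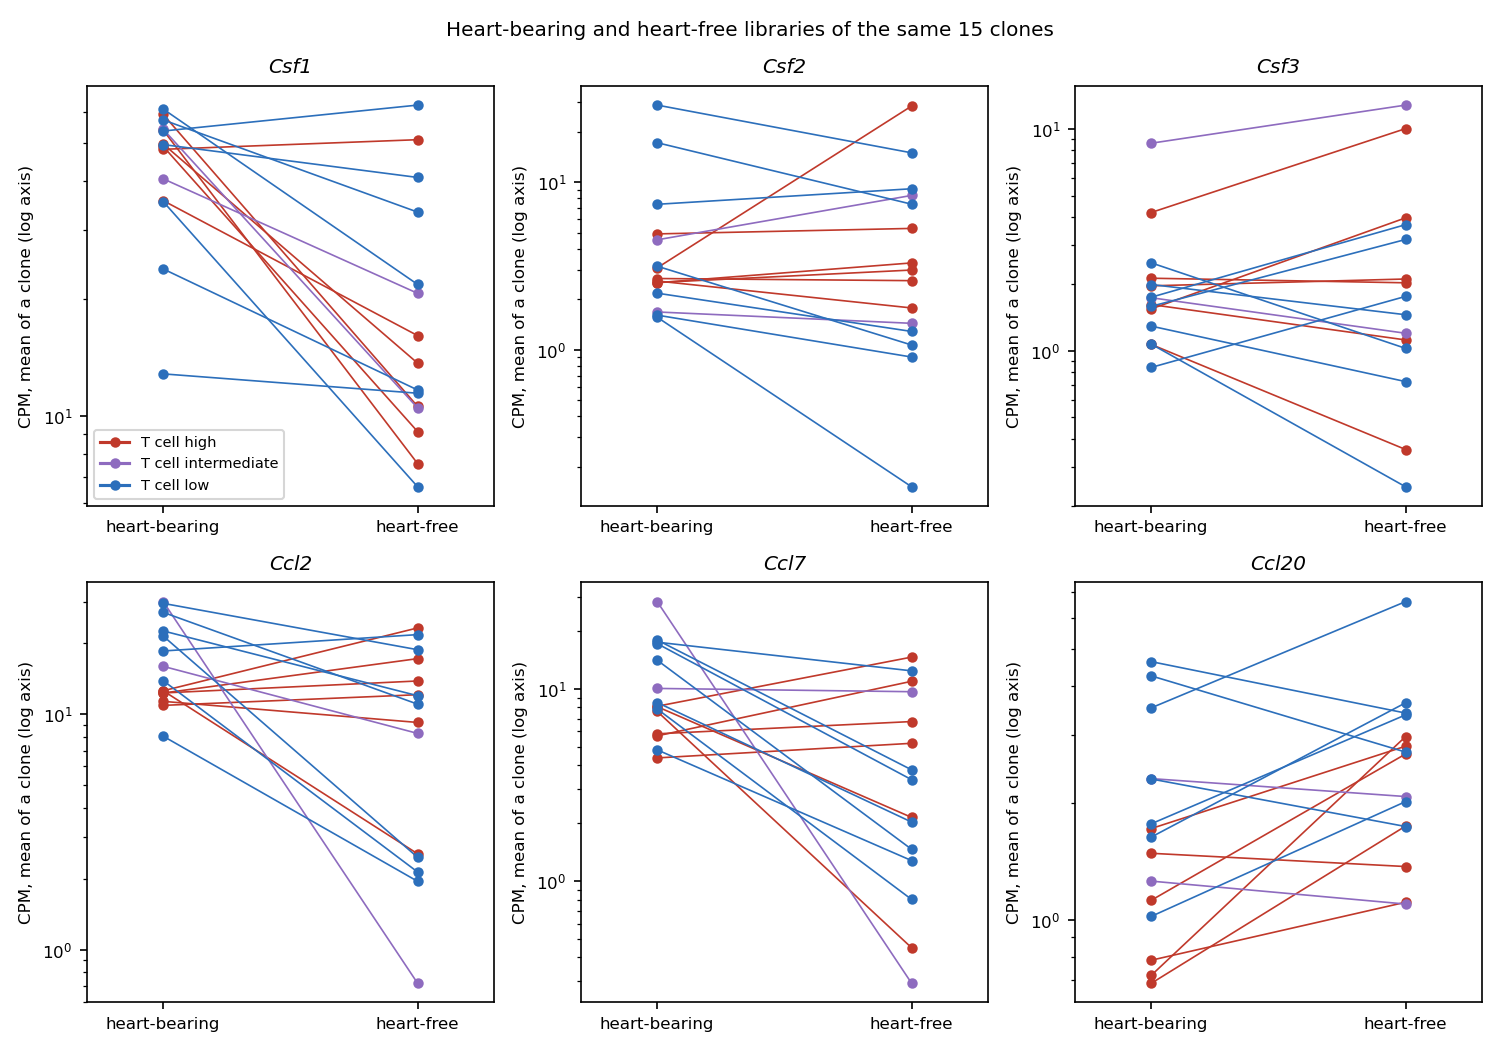
Level of each member (CPM, log axis) in the heart-bearing and the heart-free libraries of the same 15 clones; each line joins the means of 1 clone, coloured by class. Most lines fall towards the heart-free side for Csf1 (13 of 15) and Ccl7 (11 of 15), while those of Csf2, Csf3 and Ccl20 run both ways.

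The genes whose levels were most like each member's over the 16 classified clones in heart-free libraries were found among 10659 genes by Pearson's r of log2 CPM, as a description without a test. For Ccl7 they were Itgam (r = 0.937), Plek (0.936) and Ccl9 (0.932). Itgam encodes the myeloid integrin CD11b and Plek a protein of blood cells. For Csf2 they were Emp1 (0.916), Ppp1r18 (0.893) and Zyx (0.878), the last encoding the focal adhesion protein zyxin. For Csf1 they included Gpr176 (0.92) and C1s (0.871). For Csf3 they were S100a14 (0.877), Leng1 (0.863) and Stard3 (0.838). The nearest genes to Ccl2 and Ccl20 were less alike. Rab11fip5 (0.809), AI607873 (0.806) and Grk5 (0.788) came nearest to Ccl2, and Tst (0.809), Hdac10 (0.782) and Smug1 (0.778) to Ccl20. Between members, Ccl2 and Ccl7 were most alike (0.682), and the lowest values were those of Ccl7 with Ccl20 (-0.372), Csf1 with Csf3 (-0.358) and Csf1 with Csf2 (-0.314).

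Most receptors of these factors are expressed on myeloid cells. Of 10 receptor genes, 8 could be tested in heart-free libraries and 0 passed between high and low clones, with a median log2 difference of 1.61 beside -0.0024 over all genes. Csf1r, the CSF1 receptor, averaged 122.5 CPM in heart-bearing and 72.7 CPM in heart-free libraries and differed between classes by 1.45 ± 0.79, and the CSF2 receptor gene Csf2ra by 1.46 ± 0.46 (edgeR adjusted p = 0.25). Of 8 other attractants and growth factors 0 passed, with a median of 1.19. Their most abundant members, the chemokines Ccl6 and Ccl9, differed by 1.37 ± 0.71 and 1.24 ± 0.73. Pan-leukocyte sums in heart-free libraries had medians of 124.3 CPM in those of high and 35.7 CPM in those of low clones, and macrophage sums of 842 and 297 CPM, and their part in these medians was not tested. Over all libraries the median difference was 0.49 for the receptors and 0.03 for the other attractants and growth factors. Between sister clones, high minus low, these medians were -0.22 and -0.63, and 0 genes of either list passed. Of 12 NF-kB factors and targets 0 passed in heart-free libraries, with a median of 0.15. The abundant Rela and Nfkb2 differed there by 0.14 ± 0.11 and 0.15 ± 0.16. In the test among clones, Nfkbia (edgeR adjusted p = 0.0243) and Tnfaip3 (0.0284) passed, 2 of 12 genes of this list, where 8.13% of all genes passed and the residual spread came from 2 clones.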

How the data were processed

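The deposited table held raw counts per gene for 39 libraries, made by the authors with STAR and featureCounts on mm10, per the submitters' processing notes. With versions, annotation release and strand setting not given in the sources used here, counts of overlapping genes may hold shared reads. Where a symbol was repeated (214), only its row of largest total was kept, leaving 38803 genes. Levels are CPM with TMM factors over all libraries, and a clone's level is the mean of its libraries. Libraries with Myh6, Myh7, Myl2 and Mb summing under 10 CPM were called heart-free. Tests used edgeR 4.0.16 in R 4.3.3 (filterByExpr, TMM, quasi-likelihood F-test, Benjamini-Hochberg adjusted p under 0.05) on counts summed per clone, or on libraries for sister clones, for yfp_2838c3 and yfp_2699c4 and among clones. DESeq2 1.42.0, limma 3.58.1, other scalings, filters, blocks and left-out clones were alternatives. Likeness was Pearson's r of log2(CPM + 0.5) over clones, among genes averaging 5 CPM or more, the nearest 3 per member, passing over Gm, Rik and pseudogene symbols. One gene that this rule names is not reported here. Of each pathway list, up to 5 genes that passed are named, and otherwise the 2 with the highest mean CPM. Adgre1 is listed under its older symbol Emr1. The steps were tested on simulated data. Members, lists and the heart-free division were chosen with earlier results of these data known. Sister clones counted as separate replicates. Few reads limit the lowest values.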

Additional observations from a re-analysis of the deposited data

Results flagged for a closer look

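Of 24 groups of clones examined, several held a clone far from the rest. The rule is set to flag about 1 in 20 groups of normally distributed values, and it was applied to CPM without a log scale. The groups also share clones and libraries between the sets with all and with heart-free libraries. The rate of chance flags here is therefore not known. Among the 6 T cell high clones, Csf2 in yfp_6556c4 stood apart at 28.5 CPM in heart-free libraries and at 15.8 CPM over all libraries. Csf3 in yfp_7160c2 stood apart among the same clones, at 10.04 CPM in heart-free libraries and 7.12 CPM over all. Csf1 in yfp_6555c3 did so at 50.9 CPM in heart-free libraries, the library with the highest fibroblast sum, 17250 CPM. Among the 8 low clones with heart-free libraries, Ccl7 in yfp_6499c3 stood apart at 12.4 CPM, where the macrophage sum was 1564 CPM, and Ccl20 in yfp_6419c1 at 6.62 CPM. Each of these values but those over all libraries rests on 1 library.

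The heart-bearing library of yfp_6883c1, a clone with no class, held Csf1 at 115.9 CPM, above every classified heart-bearing library. Its fibroblast sum was 5612 CPM and its tumour epithelial sum 3514 CPM, the lowest of the heart-bearing libraries. The part of other cells in this value was not tested.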

How the results depend on the processing

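Members called between high and low clones stayed at 0 under every alternative run, in either set of libraries, and levels on plain library totals moved by less than 1 SD in 24 of 24 cases. The number of genes called over all libraries (0 in the fit reported) was 157 with DESeq2, 9 with each library as a replicate, 165 with heart transcripts as a block and 0 to 16 when leaving out 1 clone. In heart-free libraries it was 372 with DESeq2, 1 with each library as a replicate and 0 to 37 when leaving out 1 clone (37 without yfp_2838c3). Over all libraries, with the tumour number as a replicate block, it was 13. Deviations of high and low libraries correlated with a median r of 0.28 (-0.638 to 0.882) for the same number and -0.249 for different numbers. Number 1 goes with heart transcripts, and not every pair was over 0.1, so the numbers were not taken to pair samples, and among sister clones the same block left 0 members called. Over all libraries several differences near 0 changed sign. With the replicate block Ccl2 was at 0.0297 and Ccl7 at 0.0278. With the heart block they were at 0.10 and 0.22, and with limma on clone means 0.25 and 0.12, with Csf2 at 0.11. Csf1 was at 0.0087 with upper quartile factors and 0.12 with 1 value per parent line. Leaving out 1 clone gave -0.21 to 0.0807 for Csf1, -1.13 to 0.22 for Csf2, -0.21 to 0.0712 for Ccl2 and -0.33 to 0.11 for Ccl7. In heart-free libraries it gave -0.81 to 0.87 for Csf2, and leaving out leukocyte-rich libraries gave -0.71 for Ccl7. Among sister clones, heart-free libraries alone gave -0.92 for Csf1 and 0.28 for Ccl2, and leaving out 1 library gave -0.52 to 0.93 for Csf1 and -1.004 to 0.0179 for Ccl7. For yfp_2838c3 against yfp_2699c4, all libraries called 4 genes and 0 members, and leaving out 1 library 51 to 3047 genes and 0 to 3 members (Csf3 -3.63 to -2.92). There all libraries gave -0.0090 for Csf1, -2.26 for Csf3 and -0.51 for Ccl20, and leaving out leukocyte-rich libraries -0.50 for Ccl20, with -0.50 to 1.02 over single libraries. Among clones, the heart block over all libraries called 5439 genes and 2 members. The cause of these changes was not tested. Depth limits Csf2 and Csf3, whose lowest values rest on 5 reads.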

Other observations

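The other clones with no class were unlike yfp_6883c1. Its sister yfp_6883c4, also heart-bearing, had Csf1 at 49.2 CPM, inside the band of the heart-richest libraries. The heart-free library of yfp_7062c3 had Csf2 at 23.2 CPM and Ccl2 at 20.7 CPM, with Ccl7 at 8.18 CPM, Csf1 at 15.3 CPM, Csf3 at 3.70 CPM and Ccl20 at 1.85 CPM. Its leukocyte sum was 55.5 CPM and its macrophage sum 414 CPM, and its Ccl7 was the highest of the 14 heart-free libraries with a leukocyte sum under 100 CPM. In yfp_2699c4, the shallower heart-bearing library (7638130 counts) had Csf2 at 12.1 CPM and Ccl20 at 7.65 CPM, and the other, richer in heart transcripts, had 2.70 and 0.865 CPM.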
